A study of Mus musculus with 16 samples.

Results

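SR proteins and hnRNP proteins are the main families of RNA-binding proteins that decide which exons a pre-mRNA keeps. The 31 protein-coding mouse genes whose symbol begins with Srsf (11 genes) or Hnrnp (20 genes) were read in bulk RNA sequencing of sorted thymocytes. They were taken by symbol from count tables that list 55335 gene identifiers in the libraries with a stated age and 54532 in the others. All 31 were in both tables, and all 31 passed the filter on low counts in every comparison.

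SR proteins carry RNA recognition motifs and a tail rich in arginine and serine, bind exonic enhancers and recruit the spliceosome to nearby splice sites, and kinases and phosphatases of the tail set their activity. hnRNP proteins coat nascent transcripts, and many of them silence exons or compete with SR proteins for the same RNA. Many SR and hnRNP genes limit their own output through alternative exons whose inclusion sends the transcript to nonsense-mediated decay. In T cells, Hnrnpll and Hnrnpl are known for repressing the variable exons of Ptprc, which encodes CD45.

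RNA came from mouse thymus cells sorted as double positive (DP), the stage that bears CD4 and CD8 together and rearranges the T cell receptor alpha gene. The 5 groups were old WT (4 libraries), young METTL3 KO (3), young WT (3), and METTL3 KO (3) and WT (3) for which the labels give a genotype and no age. METTL3 is the methyltransferase that places the m6A mark on messenger RNA, and the study's title ties it to thymocyte development, ferroptosis and the shrinking of the thymus with age. The labels give no age in days, sex, strain, sort gate or origin of the replicates, and do not say which part of Mettl3 was removed, by what Cre or in which cells, so separate animals are not assured and the p-values below speak of differences between libraries whose spread may be technical.

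Gene counts summed to between 9781368 and 10307780 per library with an age. Without an age they summed to 10575795 to 13740694 in KO and 15927134 to 16167074 in WT libraries. Mettl3 itself was not lower in the libraries labelled young METTL3 KO (63.7 ± 1.33 CPM, counts scaled to library size with TMM factors, against 63.8 ± 3.66 in young WT, mean ± SD, n = 3 each, log2 difference -0.00 ± 0.08, edgeR adjusted p = 1). It was 32.7 ± 5.82 CPM in METTL3 KO libraries without an age, against 48.9 ± 4.96 in WT libraries without an age (-0.58 ± 0.18, adjusted p = 0.0189). All 12 DP markers, among them Cd4, Cd8a and Rag1, were detected in each library. Their summed level was 17927, 20633, 16385 and 20996 CPM in old WT replicates 1 to 4. It was 19452 to 21595 CPM in young WT and 19775 to 20750 CPM in the libraries labelled young METTL3 KO. Xist and Y-linked counts marked old WT replicates 1 and 2, young WT replicate 1 and young METTL3 KO replicate 3 as female. The other libraries with an age were marked as male. Old WT replicate 3 stood apart, with 9.18% of its entries not uniquely aligned. In old WT the summed level of 8 B cell markers ran from 39.4 to 546 CPM and that of 6 dendritic cell markers from 55.3 to 880 CPM, against 23.7 to 35.7 and 40.7 to 72.6 CPM in young WT.

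The promoters of 4 genes on which the results turn are shown first: Hnrnph3, the 1 member called higher in METTL3 KO libraries without an age, and Srsf2, Hnrnpab and Hnrnpul1, the 3 with the largest calls in the other direction. Each is the 250 bases ahead of a RefSeq transcript start on GRCm38.p6, read on the minus strand, at chr10:63023850-63024099 for Hnrnph3, chr11:116853095-116853344 for Srsf2, chr11:51606882-51607131 for Hnrnpab and chr7:25754760-25755009 for Hnrnpul1. Capitals mark each match, on either strand, to the NF-Y motif CCAAT, the Sp1 motif GGGCGG, the motif CCGGAAG of ETS factors, the NRF1 motif GCATGCGC or the TATA box TATAAA.
Hnrnph3: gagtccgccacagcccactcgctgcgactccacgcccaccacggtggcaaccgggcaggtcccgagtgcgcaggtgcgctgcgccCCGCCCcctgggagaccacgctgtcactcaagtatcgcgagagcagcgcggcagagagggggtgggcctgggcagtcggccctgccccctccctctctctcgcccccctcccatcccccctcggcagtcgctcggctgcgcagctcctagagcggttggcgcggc
Srsf2: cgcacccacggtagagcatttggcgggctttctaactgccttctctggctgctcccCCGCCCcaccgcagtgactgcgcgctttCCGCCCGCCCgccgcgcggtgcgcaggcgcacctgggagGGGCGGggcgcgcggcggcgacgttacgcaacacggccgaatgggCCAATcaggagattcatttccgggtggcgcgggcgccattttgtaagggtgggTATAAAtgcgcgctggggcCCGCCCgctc
Hnrnpab: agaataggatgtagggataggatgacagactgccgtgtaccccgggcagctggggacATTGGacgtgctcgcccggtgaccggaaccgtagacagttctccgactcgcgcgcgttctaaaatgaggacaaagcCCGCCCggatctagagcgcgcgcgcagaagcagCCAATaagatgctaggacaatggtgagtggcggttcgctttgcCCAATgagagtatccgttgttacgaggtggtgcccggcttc
Hnrnpul1: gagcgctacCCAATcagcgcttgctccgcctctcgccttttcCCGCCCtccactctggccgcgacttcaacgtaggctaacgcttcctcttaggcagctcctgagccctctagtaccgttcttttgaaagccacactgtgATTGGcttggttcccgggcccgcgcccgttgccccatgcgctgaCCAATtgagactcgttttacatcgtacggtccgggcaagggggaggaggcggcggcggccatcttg
The windows were picked from these results, for the gene that rose and for 3 of the 15 that fell. Whether motifs go with the direction of change was not tested. The Hnrnph3 window lay inside the gene as GENCODE places it (chromosome 10, 63014664 to 63024217). It is therefore not upstream of the outermost annotated start. The windows of Srsf2, Hnrnpab and Hnrnpul1 lay ahead of their annotated genes. The Hnrnph3 window held 1 Sp1 match and no CCAAT box, the Srsf2 window 5 Sp1 matches (2 of them overlapping), 1 CCAAT box and 1 TATA box, and the Hnrnpab and Hnrnpul1 windows 3 CCAAT boxes and 1 Sp1 match each. RefSeq windows were found for 29 of the 31 genes, 41 windows in all. GGGCGG was present in 80.5% of them, against 32.7% of all 32851 mouse windows of the same length. The NF-Y motif was present in 48.8% against 33.8%, the ETS motif in 21.95% against 6.91%, the NRF1 motif in 7.32% against 2.26% and the TATA box in 7.32% against 12.4%. The member windows had a median of 23 CG dinucleotides against 6 in all windows. All mouse windows were taken without regard to expression in these libraries or to CG content, and some members had more than 1 window. These shares therefore do not set the members apart from other expressed genes. A match describes these letters and was not tested as a binding site.

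**Figure D1:**
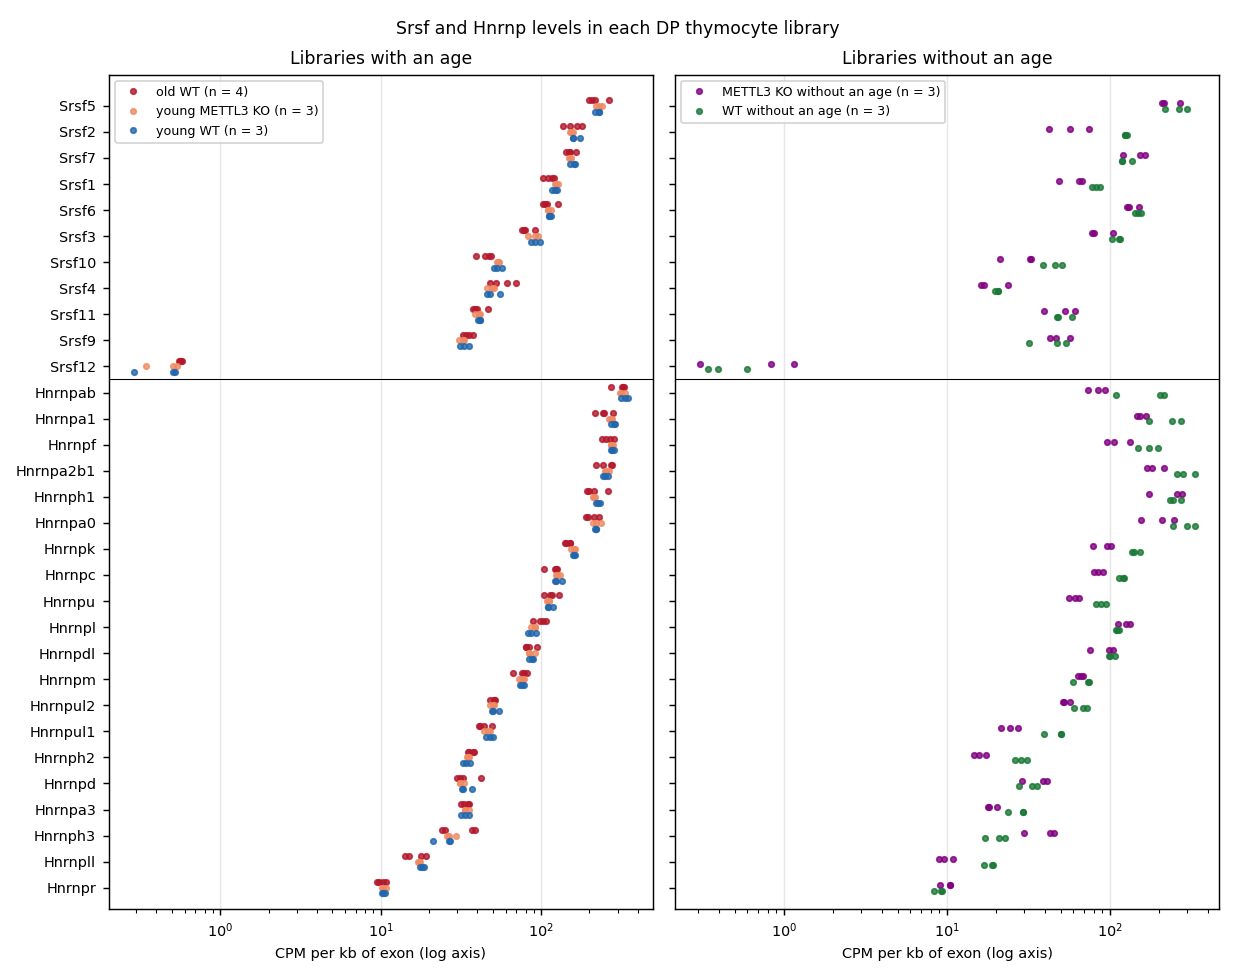
Levels of the 31 genes, in CPM per kb of exon on a log axis, with 1 point per library: old WT, young METTL3 KO and young WT on the left, METTL3 KO and WT libraries without an age on the right. Points of the 3 groups with an age lie together for nearly every gene, while on the right Srsf2, Hnrnpab, Hnrnpll and Hnrnph2 show KO points left of all WT points and Hnrnph3 shows them to the right.

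The 31 genes together took 1.59% to 1.84% of gene counts in old WT, 1.71% to 1.74% in the libraries labelled young METTL3 KO and 1.73% to 1.75% in young WT. Per kb of exon the highest levels in young WT belonged to Hnrnpab (334 ± 16.8 CPM per kb, SD, n = 3), followed by Hnrnpa1, the classical silencer that opposes Srsf1 at splice sites (281 ± 8.59), and Hnrnpf, which binds G tracts (278 ± 6.11). Hnrnpa1 and Hnrnpf were within 1 SD of each other. Srsf5 was the most abundant SR gene (226 ± 7.81 CPM per kb) and did not differ beyond its SD from Hnrnph1 (225 ± 7.03), the next in order. At the low end stood Srsf12, with 18, 18, 17 and 18 counts in old WT, 16, 11 and 17 in the libraries labelled young METTL3 KO and 17, 16 and 9 in young WT, so that its level was hardly resolved at this depth. Per kb, Hnrnpr (10.4 ± 0.242) and Hnrnpll (18.1 ± 0.448) were the lowest of the well-counted genes. This order depends on their long merged exons, 22199 and 11677 bases against a member median of 5396. In CPM they stood at 231 and 211 in young WT, above Srsf9 (54.9) and Hnrnph3 (78.7) among others. The median SR gene stood at 91.6 CPM per kb and the median hnRNP gene at 87.3 in young WT. In METTL3 KO libraries without an age those medians were 58.1 and 75.2 CPM per kb, against 82.6 and 95.5 in WT libraries without an age. The plot of levels per kb shows all 31 genes in each library.

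Gene counts of some members are uncertain. Near-identical copies (97% identity or more over at least 200 bases) were found for 9 of the 31 genes. For Hnrnpa3 there were 16, whose summed median count was 81.8% of that of Hnrnpa3 itself in libraries with an age and 244% in those without. Gm11847 and Gm5641 had the highest medians with an age (574.5 and 566 counts), and Gm6793 without one (2669.5 counts). Copies held 9.78% and 11.03% of the Hnrnpk count in libraries with and without an age, and at most 6.84% for the other 7 genes. Exons of Hnrnpab share 809 bases with Phykpl and those of Srsf4 share 1532 bases with Gm12992, each on the opposite strand. Phykpl had a median of 5236 counts in libraries with an age and 340 in those without, and Gm12992 had 1095 and 46.5. Hnrnph3 shares 115 bases with Rufy2, and Srsf2 shares 460 bases with Mettl23 and 288 with Mfsd11, also on the opposite strand. On that strand Hnrnpu shares 804 bases with Cox20, Hnrnpf 410 with 4933440N22Rik and 396 with Gm43863, Hnrnpk 330 with Rmi1 and Srsf1 98 with Gm11508. Hnrnpd, Hnrnpl and Hnrnpr have such partners too. Cox20 had a median of 608.5 counts with an age and 70 without, Gm43863 987 and 36.5, and Gm11508 622 and 0. The strand setting of the counting is not given in the sources used here, so reads of these pairs cannot be told apart. On the same strand, Hnrnpm shares 1169 bases with March2, and Hnrnpul2 and Hnrnpa3 share fewer with other genes.

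The comparison of old with young WT asked what ageing changed in DP cells. No SR or hnRNP gene was called: 0 of 31 passed an adjusted p of 0.05 in edgeR's quasi-likelihood test with Benjamini-Hochberg adjustment over all 14228 genes tested, where 0.253% of all genes were called. DESeq2 and limma-voom also called 0 of 31, and so did edgeR without old WT replicate 3. At an unadjusted p of 0.05, 1 of 31 passed, against 12.1% of all genes. The median log2 difference was -0.03 over the 31 genes and 0.01 over all genes tested, and estimates lay between -0.25 and 0.35 with a median SE of 0.09.

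The gene with the smallest p was Srsf10, an SR protein that represses splicing in its dephosphorylated form. It had 312, 342, 274 and 331 CPM in old WT, against 359, 370.3 and 398 in young WT. All 4 old libraries lay below all 3 young ones, and replicate 3 was the lowest. The log2 difference was -0.25 ± 0.09 (unadjusted p = 0.016, adjusted p = 0.332). Hnrnpk, a KH-domain protein that binds C-rich RNA, was the other gene whose old libraries all lay lower (975, 974, 913 and 929 against 1036, 1015 and 1047 CPM). Its difference was -0.12 ± 0.08 (adjusted p = 0.553). Groups that did not overlap with old WT lower occurred in 2 of 31 genes, against 4.13% of all genes, and with old WT higher in 1 of 31 (Srsf12), against 5.65%.

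Among the splice-site activators, Srsf1, which defines exons and was the earliest SR protein studied, had 589, 627, 691 and 666 CPM in old WT, against 672, 694 and 718 in young WT. Srsf3, which also couples splicing to mRNA export, had 725, 599, 631 and 617 CPM in old WT and 679, 719 and 772 in young WT. In both genes the groups overlapped (-0.11 ± 0.09 and -0.17 ± 0.10, adjusted p = 0.624 and 0.5). Srsf4 had 247, 185, 219 and 170.2 CPM in old WT, against 196, 163 and 171 in young WT. Replicates 1 and 3 of old WT were above the young range and replicates 2 and 4 inside it (0.22 ± 0.12, adjusted p = 0.488). Srsf2, which binds exonic enhancers in nuclear speckles, had 531, 449.7, 496 and 407 CPM in old WT and 515, 466 and 467 in young WT (-0.03 ± 0.10, adjusted p = 0.912). Srsf5 had 1054, 861, 789.5 and 826 CPM in old WT and 918, 865 and 919 in young WT (-0.03 ± 0.11, adjusted p = 0.932). Srsf7 had 588, 532, 511 and 534 CPM in old WT and 572, 535 and 577 in young WT (-0.05 ± 0.08, adjusted p = 0.82). In these 3 genes old WT replicate 1 was the highest of the 7 libraries and the groups overlapped.

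Among the silencers, Hnrnpa1 had 885, 776, 767 and 686 CPM in old WT, against 856, 908 and 897 in young WT. Old WT replicate 1 lay inside the young range and the other 3 lay below it (-0.19 ± 0.10, adjusted p = 0.445). Hnrnpl, which binds CA repeats and is needed for thymocyte development in mice, had 616, 587, 636 and 533 CPM in old WT and 553, 495 and 518 in young WT. Its old libraries were above the young range in 3 of 4 cases (0.18 ± 0.09, adjusted p = 0.429). Hnrnph3, a small relative of the G-tract binders, had 117, 75.4, 123 and 79.1 CPM in old WT and 67.2, 85.2 and 83.7 in young WT. Replicates 1 and 3 were high and replicates 2 and 4 lay within the young range (0.32 ± 0.17, adjusted p = 0.455). Hnrnpll, which had 174, 224, 166 and 207 CPM in old WT and 211, 206 and 216 in young WT, was low in the same 2 libraries in which Hnrnph3 was high (-0.13 ± 0.10, adjusted p = 0.63). Hnrnpa2b1 had 1789.9, 1598, 1831 and 1444 CPM in old WT and 1655, 1600.5 and 1711 in young WT (0.01 ± 0.10, adjusted p = 0.977). Hnrnpc had 543, 525, 532 and 451 CPM in old WT and 526, 534 and 579.8 in young WT (-0.09 ± 0.09, adjusted p = 0.71). Hnrnpu had 1349, 1324, 1500.1 and 1215 CPM in old WT and 1382, 1282 and 1276 in young WT (0.04 ± 0.09, adjusted p = 0.9). In all 3, old WT replicate 4 was the lowest library and the groups overlapped.

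**Figure D2:**
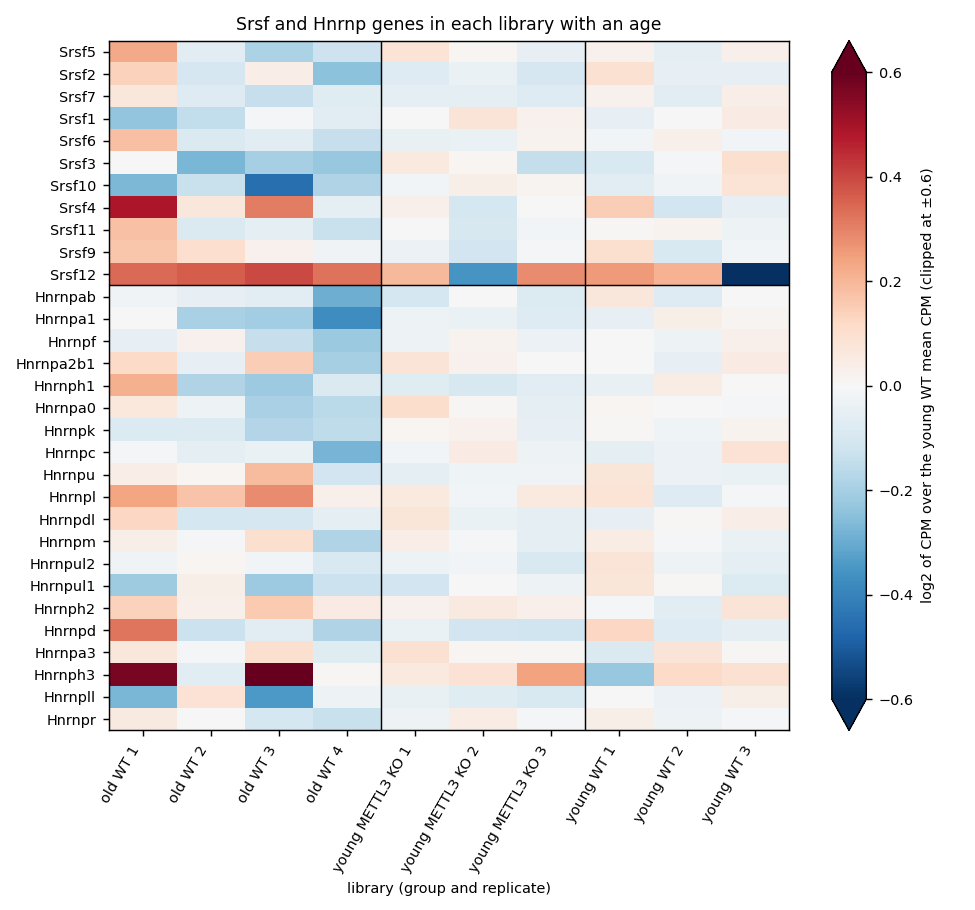
Heat map of the 31 genes (rows, Srsf above Hnrnp) in the 10 libraries with an age (columns: old WT 1 to 4, young METTL3 KO 1 to 3, young WT 1 to 3), coloured by log2 of CPM over the young WT mean, with the scale ending at ±0.6. Old WT columns carry most of the colour, with replicate 1 mainly high and replicate 4 mainly low, while the young columns stay near 0.

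The old WT libraries did not move together, as the heat map of libraries with an age shows. In old WT replicate 1, 17 of the 31 genes were above every young WT library and 6 were below. In replicate 4 the split was 1 above and 23 below. Replicate 2 had 4 above and 16 below, and replicate 3 had 9 above and 15 below. Of all genes tested, between 29.9% and 39.5% were above the young WT range in an old library and between 31.1% and 37.7% below it. The median SD of log2 CPM over the 31 genes was 0.12 in old WT, 0.04 in the libraries labelled young METTL3 KO and 0.06 in young WT. Over all genes tested it was 0.25, 0.11 and 0.12 in the same groups. The B cell, dendritic and myeloid markers were highest in old WT replicate 3. The summed DP markers were below the young WT range in old WT replicates 1 and 3 (17927 and 16385 CPM). The part of all these markers in the spread of these genes was not tested.

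The comparison of young METTL3 KO with young WT asked what loss of METTL3 changed in young animals, with the limit that Mettl3 counts were not lower in the KO-labelled libraries. None of the 31 genes was called by edgeR (0 of 31), nor by DESeq2 or limma-voom, and edgeR called 0.0% of all genes. At an unadjusted p of 0.05 the count was 0 of 31, against 0.618% of all genes. Every estimate lay within 0.13 of 0 on the log2 scale, with a median SE of 0.10. Groups did not overlap with the KO-labelled libraries lower in 2 of 31 genes (Hnrnph1 and Hnrnpll), against 4.71% of all genes, and with them higher in 0 of 31, against 4.55%.

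The largest estimate was that of Hnrnph3, at 82.0, 83.7 and 92.9 CPM in the libraries labelled young METTL3 KO, against 67.2, 85.2 and 83.7 in young WT (0.13 ± 0.18, adjusted p = 1). Hnrnpd, also known as AUF1 and a regulator of AU-rich mRNAs, had 243, 230.3 and 230.1 CPM in the KO-labelled libraries, against 272, 237 and 240.4 in young WT (-0.09 ± 0.12). In both genes 1 young WT library, replicate 1, stood apart from the other 2. It was the only young WT library marked as female by Xist and Y-linked counts. Srsf2 had 457, 469 and 450.3 CPM in the KO-labelled libraries and 515, 466 and 467 in young WT (-0.07 ± 0.11). Srsf7, a zinc-knuckle SR protein, had 541, 539 and 533 CPM in the KO-labelled libraries and 572, 535 and 577 in young WT (-0.06 ± 0.09). Hnrnph1 had 1254, 1233 and 1259.6 CPM in the KO-labelled libraries and 1278, 1359.9 and 1313 in young WT (-0.08 ± 0.12). The groups overlapped in Srsf2 and Srsf7 and not in Hnrnph1, and each of these genes had an adjusted p of 1.

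The other main members were as close. In the libraries labelled young METTL3 KO, Srsf1 had 696, 732 and 707 CPM (0.03 ± 0.09 against young WT), Srsf3 753, 728 and 656 (-0.02 ± 0.10) and Srsf5 954, 909 and 871 (0.02 ± 0.11). Hnrnpa1 had 867, 862 and 841 CPM (-0.05 ± 0.10), Hnrnpa2b1 1748, 1683 and 1654 (0.03 ± 0.11) and Hnrnpc 541, 565 and 536 (0.00 ± 0.10). Hnrnpk had 1041, 1049.5 and 998 CPM (-0.00 ± 0.09) and Hnrnpu 1266, 1291 and 1296 (-0.03 ± 0.10). The CD45 regulators Hnrnpl and Hnrnpll had 544, 516 and 543 and 205, 201 and 198 CPM (0.03 ± 0.10 and -0.07 ± 0.11). The young WT values of these genes are those given above, and the 2 groups overlapped in each of them except Hnrnpll.

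**Figure D3:**
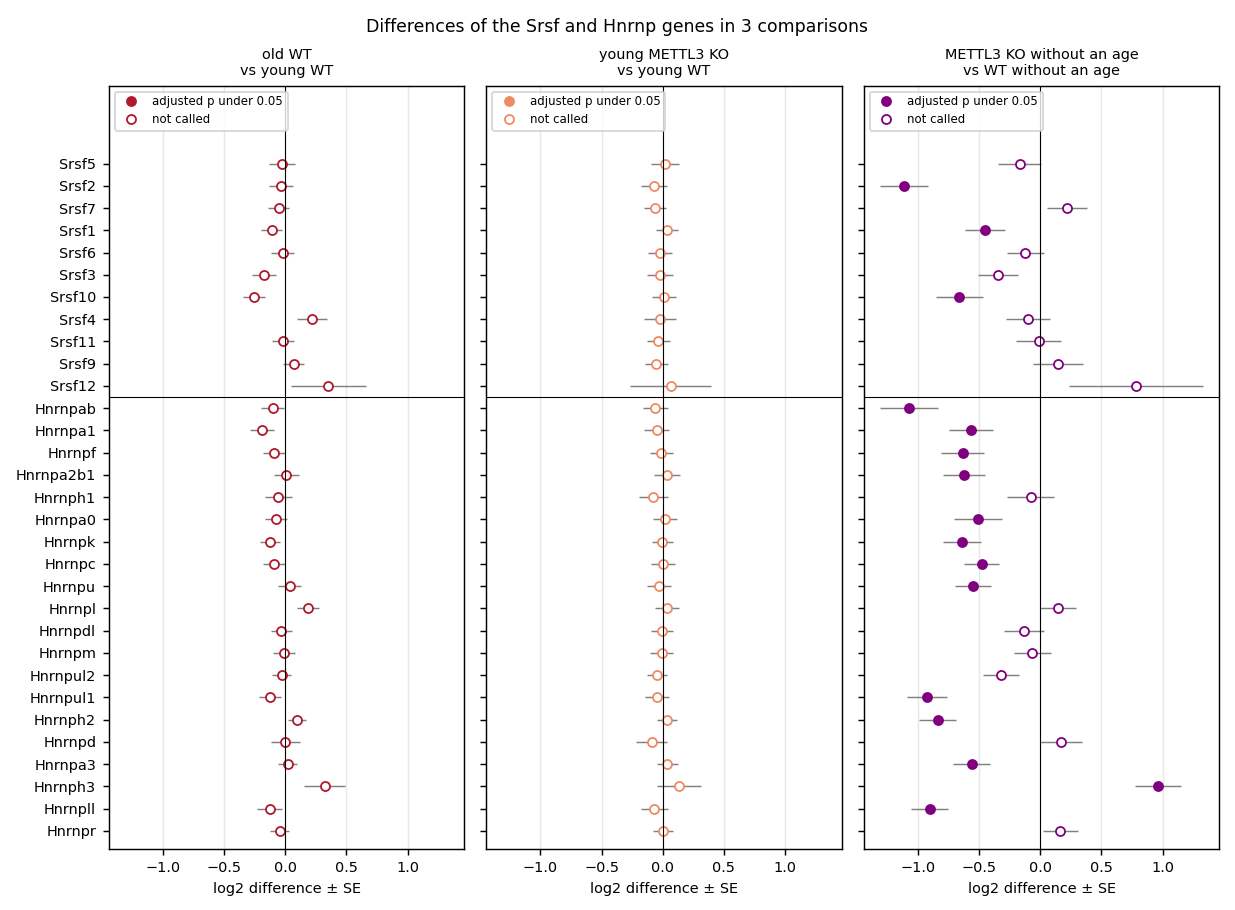
Log2 differences ± SE of the 31 genes in 3 comparisons, with filled points for an adjusted p under 0.05: old WT over young WT, young METTL3 KO over young WT, and METTL3 KO over WT without an age. No point is filled in the left and middle panels, and 16 are filled in the right panel, 15 of them left of 0 and Hnrnph3 right of it.

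The comparison of METTL3 KO with WT libraries without an age asked the same question in the other set, in which Mettl3 was lower in KO. Here 15 of the 31 genes fell and 1 rose, as the plot of differences shows, while 15 did not pass the test. The hnRNP genes made up most of it: 12 of 20 fell and Hnrnph3 rose, against 3 of 11 SR genes that fell (Srsf2, Srsf10 and Srsf1) and 0 that rose. Changes were frequent in this comparison: 53.9% of the 16432 genes tested were called, 24.0% lower and 29.9% higher. The median log2 difference was -0.12 over the SR genes and -0.53 over the hnRNP genes, against 0.08 over all genes tested. With scaling by library size alone those medians were -0.02, -0.44 and 0.17. With no filter on low counts the median was -0.52 over the 31 genes and 0.53 over all genes, and 17 of the 31 were called lower. In 15 genes all KO libraries lay below all WT libraries, against 29.5% of all genes, and in 1 gene all lay above, against 34.3%.

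Several values moved with genotype in this set. Counts outside genes were 0.402 to 0.551 per gene count in KO and 0.194 to 0.205 in WT libraries. The 12 DP markers summed to 10773 to 14104 CPM in KO and 20511 to 22516 CPM in WT libraries, with 7 of 12 called lower. The 8 B cell markers summed to 78.3 to 91.1 CPM in KO and 29.7 to 39.4 in WT libraries, with 7 called higher. The 6 dendritic markers summed to 109 to 201 CPM in KO and 37.2 to 64.9 in WT libraries, all 6 called higher, and no B cell or dendritic marker was at 0 in all libraries of a group. The 6 mature thymocyte markers summed to 127 to 166 CPM in KO and 232 to 302 in WT libraries, with 1 called lower. The list as a whole did not fall, as 3 of the 6 had estimates above 0 and the median log2 difference was -0.04. Myeloid markers summed to 29.5 to 39.4 CPM in KO and 15.6 to 22.1 in WT libraries, with 2 of 6 tested called higher. NK and gamma-delta markers (1 of 4 higher), thymic epithelium (1 of 3 higher) and erythroid markers (1 of 2 lower) completed the lists. Xist and Y-linked counts marked 2 of 3 KO libraries as female and 0 of 3 WT libraries. In bulk RNA, fewer cells of a type and less RNA per cell cannot be told apart. Sex was a covariate in an alternative fit given below. The part of the other values in the gene differences was not tested, except for counts outside genes, in a fit added after the data were seen. With counts outside genes as a covariate, that fit called 5 of the 31 genes (4 lower, 1 higher) and 2839 genes in all. That covariate separates KO from WT libraries completely, and the median SE of the 31 genes was 0.61 with it and 0.16 without, so the covariate and the genotype cannot be told apart.

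**Figure D4:**
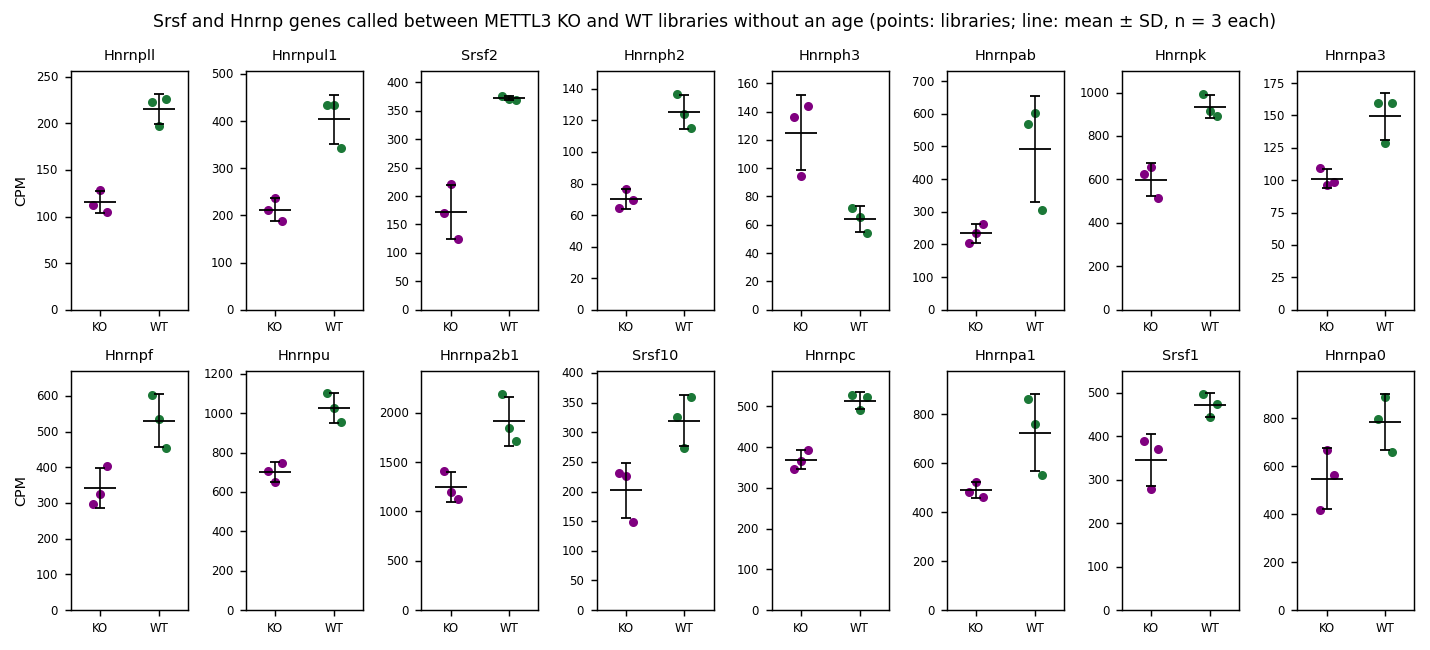
CPM of the 16 genes called between METTL3 KO and WT libraries without an age, in order of p, with 1 point per library, bars for mean ± SD (n = 3 each) and axes that start at 0. The KO points lie below the WT points in 14 panels and above them in the Hnrnph3 panel, and in the Hnrnpa0 panel the groups overlap.

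Among the SR proteins, Srsf2 changed most. Srsf2, also called SC35, binds exonic enhancers, sits in nuclear speckles and also promotes release of paused RNA polymerase II. It had 169.7, 221 and 125 CPM in KO, against 377, 369.9 and 369.7 in WT libraries. The WT libraries agreed closely, the KO libraries spread widely and lay well below them, and the gene fell 2.17-fold (-1.11 ± 0.20, adjusted p = 0.000821). Srsf10 had 231, 227 and 148 CPM in KO and 326, 274 and 359 in WT libraries. KO replicate 3 was the lowest and the groups did not overlap (-0.66 ± 0.19, adjusted p = 0.0128). Srsf1 had 389, 278 and 369.6 CPM in KO and 496, 443 and 474 in WT libraries. All KO values were lower, with KO replicate 2 the farthest (-0.45 ± 0.16, adjusted p = 0.0373). The Srsf1 call was lost in 6 of 14 alternative fits, among them those with library size alone and without WT replicate 1 or 3.

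The other 8 SR genes did not pass. Srsf3 had 635, 827 and 619 CPM in KO and 907, 817 and 915 in WT libraries. KO replicate 2 lay just inside the WT range and the other 2 below it (-0.34 ± 0.16, adjusted p = 0.0987). Srsf5 had 859, 1076 and 836 CPM in KO and 1183, 1059 and 867 in WT libraries (-0.17 ± 0.18, adjusted p = 0.446). Srsf7 had 544, 428 and 583 CPM in KO and 489.6, 424 and 426 in WT libraries (0.22 ± 0.16, adjusted p = 0.286). The groups of Srsf5 and Srsf7 overlapped. Srsf4, Srsf6, Srsf9 and Srsf11 had estimates between -0.12 and 0.14, and Srsf12, counted 44, 11 and 35 times in KO and 19, 17 and 29 in WT libraries, was estimated at 0.78 ± 0.55 (adjusted p = 0.25).

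Among the hnRNP genes linked to T cell splicing, Hnrnpll had the smallest p of all 31. It had 112, 128 and 105 CPM in KO, against 223, 197 and 226 in WT libraries. Every KO library was below every WT library by a wide margin, and the gene fell 1.87-fold (-0.90 ± 0.15, adjusted p = 0.000569). Its relative Hnrnpl had 746, 669 and 794 CPM in KO and 684, 665 and 649 in WT libraries. Hnrnpl did not pass the test, and KO replicate 2 lay inside the WT range (0.14 ± 0.15, adjusted p = 0.429).

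The G-tract binders of the F and H group moved in different directions. Hnrnph2, on the X chromosome, had 64.6, 76.7 and 69.4 CPM in KO and 137, 124 and 115 in WT libraries (-0.84 ± 0.15, adjusted p = 0.00096). Hnrnpf had 296, 324 and 404 CPM in KO and 602, 535 and 453 in WT libraries (-0.63 ± 0.17, adjusted p = 0.00927). Both fell, with no overlap, and the Hnrnpf call was lost with sex as a covariate. Hnrnph3 had 136, 94.6 and 144 CPM in KO and 72.2, 65.8 and 54.4 in WT libraries. All 3 KO libraries exceeded the WT range, replicate 2 the least, and the gene rose 1.95-fold (0.96 ± 0.19, adjusted p = 0.00161). Hnrnph1 was 1392 ± 326 CPM in KO and 1471 ± 121 in WT libraries (SD, n = 3 each, -0.08 ± 0.19, adjusted p = 0.75).

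The genes with A or AB in their symbol, among them the exon silencer Hnrnpa1, come next, a grouping by name only. Hnrnpab had 205, 236 and 262 CPM in KO and 568, 604 and 306 in WT libraries. WT replicate 3 was low but still above all KO libraries, reads of the overlapping Phykpl cannot be told apart from its own, and the fall was 2.10-fold (-1.07 ± 0.23, adjusted p = 0.00273). Hnrnpa2b1, which has been described as a nuclear reader of m6A, had 1414, 1197 and 1124 CPM in KO and 2190.0, 1846 and 1709 in WT libraries (-0.62 ± 0.17, adjusted p = 0.00946). Hnrnpa1 had 483, 525 and 461 CPM in KO and 861, 762 and 551 in WT libraries (-0.57 ± 0.18, adjusted p = 0.0204). In both the groups did not overlap, and for Hnrnpa1 WT replicate 3 lay close to the KO range. Hnrnpa3 had 109, 96.2 and 98.2 CPM in KO and 159.7, 129 and 159.6 in WT libraries (-0.56 ± 0.15, adjusted p = 0.0091), with the reservation that its copies held more counts than the gene. Hnrnpa0 was 548 ± 126 CPM in KO and 782 ± 117 in WT libraries (SD, n = 3 each). Its groups overlapped, and its call (-0.51 ± 0.20, adjusted p = 0.0445) was lost in 7 of 14 alternative fits, the Hnrnpa1 call in 4. Hnrnpd (0.17 ± 0.17) and Hnrnpdl (-0.13 ± 0.16), which lie 54.6 kb apart on chromosome 5, did not pass.

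The remaining hnRNP genes include packaging and scaffold proteins. Hnrnpul1, a relative of Hnrnpu that takes part in the DNA damage response, had 212, 237 and 187 CPM in KO and 433, 434 and 343 in WT libraries (-0.93 ± 0.16, adjusted p = 0.00081). Hnrnpu, also called scaffold attachment factor A, had 708, 649 and 748 CPM in KO and 1102, 1025 and 953 in WT libraries (-0.55 ± 0.15, adjusted p = 0.00935). Both fell with no overlap between groups. Hnrnpk had 624, 659 and 515 CPM in KO and 995, 915 and 893 in WT libraries (-0.64 ± 0.16, adjusted p = 0.00523). Hnrnpc, which binds U tracts and coats pre-mRNA, had 347, 366 and 393 CPM in KO and 528, 490.3 and 522 in WT libraries (-0.48 ± 0.14, adjusted p = 0.0141). KO values of both were below all WT values, and the Hnrnpc call was lost with sex as a covariate, with the replicate block and without WT replicate 1. Hnrnpul2 (-0.32 ± 0.15, adjusted p = 0.0868), Hnrnpm (-0.06 ± 0.15) and Hnrnpr (0.16 ± 0.14) did not pass, and all KO libraries of Hnrnpul2 were below the WT range.

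In each KO library, 17 to 23 of the 31 genes lay below the WT range and 5 or 6 above it, while between 40.5% and 41.3% of all genes tested lay below and between 43.5% and 47.9% above. The median SD of log2 CPM over the 31 genes was 0.20 in KO and 0.14 in WT libraries, against 0.34 and 0.22 over all genes. Of the 16 calls, 11 were kept in all 14 alternative fits other than the fit with counts outside genes as a covariate. With sex as a covariate the calls of Srsf1, Hnrnpa0, Hnrnpf and Hnrnpc were lost. In that fit Srsf3, Hnrnph1 and Hnrnpdl, not called in the main fit, were called lower.

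Whether the KO difference was unequal in the 2 sets was tested as a contrast over 12 libraries, the difference without an age minus the difference among young libraries. It was called for 10 of the 31 genes, against 36.9% of all 16557 genes tested. It was negative for 8, against 17.7% of all genes, and positive for 2, against 19.2%. The 8 were Hnrnph2 (-0.70 ± 0.15), Hnrnpll (-0.66 ± 0.14), Hnrnpul1 (-0.71 ± 0.18), Srsf2 (-0.87 ± 0.22), Hnrnpab (-0.85 ± 0.27), Hnrnpk (-0.47 ± 0.16), Hnrnpa3 (-0.43 ± 0.14) and Hnrnpa2b1 (-0.49 ± 0.17). Hnrnph3 (1.00 ± 0.22) and Srsf7 (0.44 ± 0.16) were the 2 positive ones, and adjusted p-values ran from 0.00189 for Hnrnph2 to 0.039 for Srsf7. Of the 10, 9 were also among the 16 called within the set without an age, and Srsf7, whose call was lost in 15 of 21 alternative fits, was the exception. Some genes outside the 10 were called, with negative values, in many of the 21 alternative fits. These were Hnrnpf and Hnrnpu (15 each), Hnrnpc (14), Srsf10 (13) and Srsf1 (11), so the list of 10 depends on the fit. The count of called genes was 5 without WT replicate 1 and 18 without METTL3 KO replicate 2. TMM scaling across the sets left the median of all genes at 0.14. With factors from each set alone, an alternative added after the data were seen, that median was 0.02 and 14 of the 31 genes were called, 13 negative and Hnrnph3 positive. The sets differ in unaligned entries (50.5% to 52.2% without an age and 0.577% to 0.826% with one). They also differ in entries outside genes (7.23% to 15.0% without an age and 47.5% to 51.2% with one) and in the gene identifiers listed. The labels do not say how else they differ. The same contrast for Mettl3 itself was -0.41 ± 0.19 and was not called (adjusted p = 0.106). Fitted within each set, the Mettl3 differences were -0.58 without an age and -0.00 among young libraries. Values of the contrast fitted across the sets are thus not the plain difference of the estimates within sets.

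**Figure D5:**
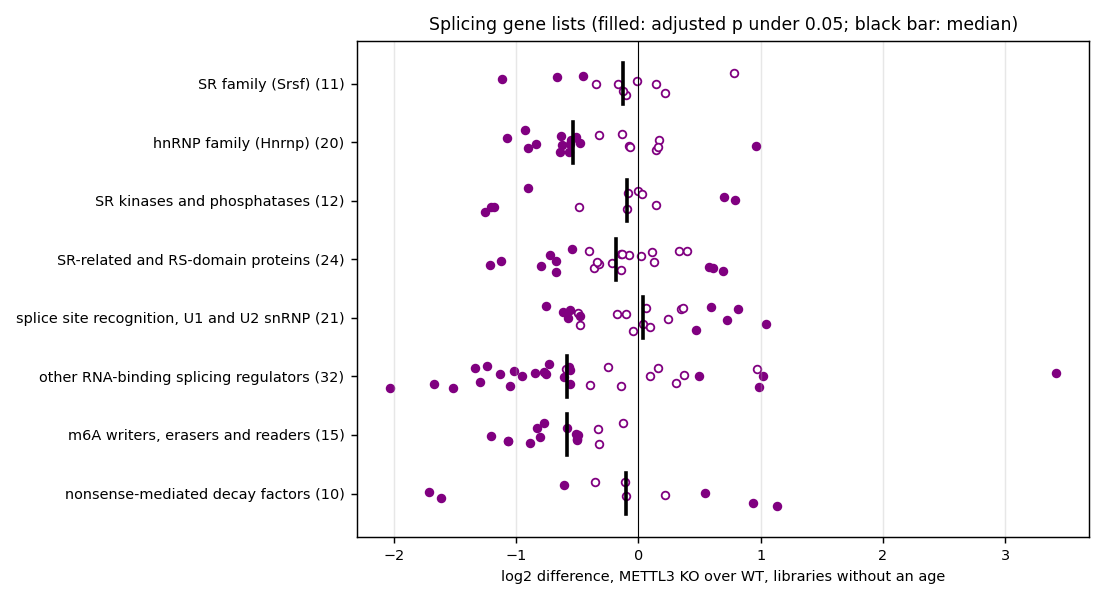
Log2 difference of METTL3 KO over WT without an age for each gene of the SR and hnRNP families and of 6 lists of related genes, with filled points for an adjusted p under 0.05 and a black bar at each median. The hnRNP, other RNA-binding and m6A medians are -0.53, -0.58 and -0.58, and those of the other lists nearer to 0.

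Genes that work with SR and hnRNP proteins were read from 6 lists with 114 symbols, chosen with earlier results of these data known. In the age comparison and in that of the libraries labelled young METTL3 KO, 0 genes of the lists were called. Of the 32 other RNA-binding regulators of splicing, 30 passed the filter on low counts in those comparisons. In the set without an age the counts of called genes below stand beside 24.0% of all genes called lower and 29.9% called higher. Of the 12 kinases and phosphatases of the SR tail, 4 fell and 2 rose. Ppp1cb (-1.26 ± 0.15) and Ppp1cc (-1.21 ± 0.15), catalytic subunits of protein phosphatase 1, and the kinase Prpf4b (-1.18 ± 0.21) fell, and Clk2, a kinase that releases SR proteins from speckles, rose (0.70 ± 0.14). Of 24 SR-related proteins 7 fell and 3 rose. Scaf11 (-1.22 ± 0.15), Tnpo3, the importin that carries SR proteins into the nucleus (-1.12 ± 0.15), and Luc7l3 (-0.72 ± 0.16) fell, and Acin1 rose (0.69 ± 0.16). The list medians were -0.09 and -0.18.

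Of 21 genes of splice site recognition and the U1 and U2 particles, 5 fell and 5 rose (median 0.03, against 0.08 over all genes), beside the 24.0% lower and 29.9% higher of all genes. Snrnp70, which marks the 5′ splice site in the U1 particle (1.04 ± 0.18), U2af1, which reads the AG at the 3′ splice site (0.81 ± 0.17), and Snrpa1 (0.72 ± 0.15) rose, and Sf3b3 fell (-0.56 ± 0.14). Of 32 other RNA-binding regulators of splicing, 19 fell and 4 rose (median -0.58). Mbnl3 (-2.03 ± 0.20), Fubp1 (-1.67 ± 0.18), Sfpq (-1.34 ± 0.16) and Qk (-1.52 ± 0.18) fell. The 4 that rose, named after their values were seen, were Rbfox2 (3.42, adjusted p = 0.000287), Taf15 (1.02, adjusted p = 0.00152), Cirbp (0.99, adjusted p = 0.00278) and Ewsr1 (0.50, adjusted p = 0.0194). The Rbfox2 difference was the largest in size of all listed genes. Its level is not given here, and whether it passed the filter on low counts through the KO libraries alone was not looked at. The median of the hnRNP genes was -0.53. Of 10 nonsense-mediated decay factors, 3 fell and 3 rose, with the kinase Smg1 (-1.61 ± 0.18), Smg8 (-1.71 ± 0.19) and Smg6 (-0.61 ± 0.15) lower and Smg9 (1.13 ± 0.17) higher.

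Of 15 m6A writers, erasers and readers, 12 fell and 0 rose (median -0.58), Mettl3 itself included, where 24.0% of all genes were called lower and 29.9% higher. Among them were the erasers Alkbh5 (-1.06 ± 0.14) and Fto (-0.89 ± 0.16) and the writer-complex members Rbm15b (-1.21 ± 0.16) and Virma (-0.83 ± 0.16). The adjusted p of the 4 genes of smallest p in each list lay between 6.96e-05 for Mbnl3 and 0.00635 for Smg6, and that of Mettl3 was 0.0189. With scaling by library size alone 9 of the 15 m6A genes were called lower, and the median of the kinase and phosphatase list was 0.01 (0.03 with sex as a covariate, a fit in which 12 SR-related genes were called lower). With no filter on low counts, the splice site list had a median of -0.16, with 6 lower and 3 higher. The same markers and counts outside genes given above moved with genotype here too, and their part was not tested.

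Some features of the genes themselves, which the choice by symbol did not use, were read from the GENCODE annotation of GRCm38. A transcript annotated as a target of nonsense-mediated decay was listed for 9 of 11 SR genes (81.8%) and 10 of 20 hnRNP genes (50.0%), against 20.9% of 21899 protein-coding genes. A transcript with a retained intron was listed for 22 of the 31 (71.0%), against 41.6%. The 31 genes also had more annotated transcripts, a median of 7 against 3. The files count reads per gene, so the use of these exons was not analysed here. All protein-coding genes were taken without regard to expression in these libraries or to their number of annotated transcripts. These annotation shares therefore do not set the members apart from other expressed genes. GGACT, a common form of the m6A motif, occurred 0.38 times per kb in the longest coding transcript of the median SR gene and 0.72 times in that of the median hnRNP gene, against 1.05 in 12837 protein-coding genes tested. Srsf2 and Hnrnph3 had 0.53 and 0.90 GGACT per kb, Hnrnpll 0.32, and Hnrnpab and Hnrnpa2b1 none.

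Coordinates of the genes with the 6 smallest p in the KO comparison without an age follow GENCODE on GRCm38. Hnrnpll (ENSMUSG00000024095) lies on chromosome 17 at 80029487 to 80062334, 138 kb from Srsf7. Hnrnpul1 (ENSMUSG00000040725) lies on chromosome 7 at 25721165 to 25754757 and Srsf2 (ENSMUSG00000034120) on chromosome 11 at 116849901 to 116853094. Hnrnph2 (ENSMUSG00000045427) lies on chromosome X at 134601179 to 134607060. Hnrnph3 (ENSMUSG00000020069) lies on chromosome 10 at 63014664 to 63024217 and Hnrnpab (ENSMUSG00000020358) on chromosome 11 at 51600100 to 51606847.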

How the data were processed

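The authors deposited 1 table of raw counts per library for 16 libraries of sorted thymic DP cells; alignment was to mm10 with HISAT2 2.0.5, per the submitters' processing notes. For the counting program, annotation and strand setting the labels and tables name nothing. The 5 summary lines per library (reads outside genes, ambiguous, low quality, unaligned, not unique) stayed out of library sizes and tests. Outside genes lay 47.5% to 51.2% of entries with an age and 7.23% to 15.0% without.

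Identifiers were named with the GENCODE annotation of GRCm38, and promoters were taken from RefSeq on GRCm38.p6. The members and lists were chosen with earlier results of these data known. Libraries with and without an age were fitted apart, in edgeR 4.0.16 (filterByExpr, TMM, robust quasi-likelihood fit, Benjamini-Hochberg adjustment over all genes tested, threshold 0.05), and the difference between the METTL3 KO comparisons in 1 fit of 12 libraries. CPM are scaled by TMM within each fit; per kb means per kb of merged exons. The procedure was tested on simulated data. All 31 members may be named; values per library are given for called members (up to 12 per direction), the 5 smallest p of each comparison and 12 main members, and up to 4 genes of smallest p per list, with Mettl3 as a check of the labels. Copies were sought with BLAST 2.17.0. Alternatives were 9 planned settings, leave-one-out and 2 added after the data were seen, with DESeq2 1.42.0 and limma 3.58.1 (voom) among them, in R 4.3.3. Replicate numbers did not pair the libraries.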

Additional observations from a re-analysis of the deposited data

Results flagged for a closer look

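Hnrnpab in old WT replicate 4 had 758 CPM, while the other 3 old WT libraries had 889 to 916. Its gap to the nearest library, divided by the range of the group, was 0.834, above Dixon's critical value for 4 samples. This was 1 of 31 genes looked at in old WT, and chance flags about 1 in 20 groups.

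In edgeR's test, the KO difference was unequal between the set without an age and the young set for 10 of 31 genes. That share, 32.3%, was below the 36.9% over all genes. Of the 10 calls 5 were kept in all 21 alternative fits and 5 were lost in at least 1, that of Srsf7 in 15. Hnrnpf, Hnrnpu, Hnrnpc, Srsf10 and Srsf1, which are not among the 10, were each called in 11 to 15 of those fits. Hnrnph3 was at 1.00 and Srsf7 at 0.44 on the log2 scale, that is, higher in METTL3 KO over WT without an age than in young METTL3 KO over young WT. Srsf2 was at -0.87, Hnrnpab at -0.85, Hnrnpul1 at -0.71, Hnrnph2 at -0.70, Hnrnpll at -0.66, Hnrnpa2b1 at -0.49, Hnrnpk at -0.47 and Hnrnpa3 at -0.43. Mettl3 itself was at -0.41 in this contrast and was not called (adjusted p = 0.106). Its differences fitted within each set were -0.58 without an age and -0.00 among young libraries, so the contrast across sets is not their plain difference. The sets differ in their shares of unaligned entries and of entries outside genes, and in the gene identifiers listed. The part of these in the differences was not tested.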

How the results depend on the processing

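The count of 0 of 31 genes between old and young WT, and between the libraries labelled young METTL3 KO and young WT, held in every alternative run. The count of all genes called between old and young WT was 36 and became 85 with no filter on low counts, 153 with DESeq2, 61 with the replicate block, 11 with only the 2 groups in the fit, and 8 to 59 when 1 library was left out. For young METTL3 KO it was 0, and 1 with no filter. Between METTL3 KO and WT without an age, leaving out 1 library gave 12 to 17 of 31 genes called (11 to 16 lower, 1 higher) and 7746 to 9866 genes in all. With the replicate block 12 were called, and same-number libraries of the 2 groups correlated at -0.13 to 0.01, so the numbers are not a pairing. With counts outside genes as a covariate, 5 were called (4 lower) and 2839 in all, and Hnrnpf (0.28) and Srsf1 (0.43) changed sign without passing. That covariate separates the groups, so it and the genotype cannot be told apart. For the difference between the KO comparisons, 10 genes were called (8 lower, 2 higher). Without a filter 16 were called (15 lower, 1 higher), with the replicate block 6 (5 lower, 1 higher), with TMM factors from each set alone 14 (13 lower, 1 higher). DESeq2 called 4 higher and library size alone called 1 higher. Leaving out 1 library gave 5 (without WT replicate 1) to 18 (without METTL3 KO replicate 2), with 4 to 16 lower and 1 to 2 higher. The cause of these moves was not tested. Depth limits Srsf12, with 9 to 18 counts per library with an age.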
